A study of Homo sapiens with 10 samples.

Results

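The genes described here make and run the first stages of ribosome production: the subunits of RNA polymerase I and the nucleolar proteins that process and fold its transcript. They were taken by a rule on gene symbols. Symbols starting with UTP, NOP or RRP and a digit, or with POLR1, gave 32 genes, and NPM3, WDR3, GPATCH4, MRTO4, GRWD1 and CMSS1 were added by name, which made 38 of the 17687 genes measured. The group was chosen by its OR21 response in these same arrays, and each of the 6 genes added by name was at least 2-fold lower in all 4 lines. The OR21 values of the members are therefore given as a description, with no test.

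RNA was measured on 10 single-colour arrays, 1 for each condition. HL60 (acute myeloid leukaemia), MDSL and SKM1 (myelodysplastic syndrome) and K562 (chronic myeloid leukaemia) each gave a control array and an array of cells treated for 96 hours with OR21, the hypomethylating agent OR-2100. The dose was 500 nM in HL60 and K562 and 100 nM in MDSL and SKM1, so dose and line cannot be told apart. The other 2 arrays held untreated HL60 cells labelled AZA resistant and OR21 resistant. How these derivatives were raised, and whether each is 1 clone, was not given in the sources used here. Separate cultures are named nowhere in the labels, and fewer cells of a kind and less RNA per cell cannot be told apart.

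The summed levels of lineage markers differed between the lines. The summed level of 10 granulocyte and monocyte markers, among them MPO and LYZ, was 15.86 to 19.08 log2 on the HL60, MDSL and SKM1 arrays and 12.18 to 13.11 on the K562 arrays. The sum of 7 erythroid markers was 17.09 to 18.59 in K562 and 12.71 to 15.38 elsewhere. Each sum is the log2 of added intensities, so its brightest genes set it. TFRC alone was at 13.68 in control HL60 and 14.17 in control SKM1, where the erythroid sums were 13.72 and 14.21. In control MDSL LYZ was at 15.22 and MPO at 8.62, with a granulocyte and monocyte sum of 15.86. Markers of other cell types were not all silent. Of 18 measured for B cells, T and NK cells, epithelium, fibroblasts and endothelium, 9 were above the background median on all 10 arrays, and 4 (MS4A1, CD3G, KRT5 and CDH5) were at or under it on all 10. Among the controls the epithelial genes KRT8 and EPCAM stood at 15.37 and 13.31 log2 in K562, EPCAM at 12.46 in SKM1 and the B cell gene CD79A at 11.49 in MDSL. The summed level of 5 epithelial markers was 15.80 and 15.98 in K562 and 9.45 to 12.63 elsewhere, and that of 4 B cell markers was 11.29 and 11.79 in MDSL and 8.33 to 9.59 elsewhere. The 5 T and NK cell markers summed to 8.16 to 10.96 and the 4 of fibroblasts and endothelium to 9.21 to 9.85 over all arrays. Members were above the background median of each array, except NOP2 and POLR1B in treated HL60 and RRP12 in treated MDSL, whose differences there are minimum sizes. Some values were only a little above it, such as NOP2 at 5.53 in control SKM1, where the background median was 5.41.

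RNA polymerase I transcribes the ribosomal RNA genes in the nucleolus. The long precursor is bound while it is still being made by a large particle, the small subunit processome, whose UTP proteins fold and cut it. NOP and RRP proteins take part in modification, cleavage and subunit assembly. The transcription factor MYC is a known activator of many of these genes, through the E-box sequence CACGTG, and growing leukaemia cells make ribosomes at a high rate.

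With OR21 the members were lower together in every line. In HL60 36 of 38 members were lower and their median difference was -2.14 log2, which leaves 22.6% of the control level. The median was -0.996 in K562, with 36 of 38 lower, -0.83 in MDSL, also with 36 lower, and -0.65 in SKM1, with 33 lower. Over all genes the medians lay between -0.05 in HL60 and 0.00 in K562. The mean of the 4 line medians was -1.15 ± 0.67 (SD, n = 4 lines), and -0.82 without HL60.

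Counted by size, 30 of 38 members were at least 2-fold lower in HL60 (11.1% of all genes were), 19 in K562 (3.86%), 16 in MDSL (4.88%) and 10 in SKM1 (4.47%). In all 4 lines at once 31 members were lower by any size (15.3% of all genes) and 8 were at least 2-fold lower (0.226%). These 8 were the 6 genes added by name, NOP16 and RRP1. Of the 32 genes found by symbol alone, 24 were at least 2-fold lower in HL60, 13 in K562, 10 in MDSL and 4 in SKM1, with medians of -1.99, -0.91, -0.66 and -0.56. The lowest of the 4 differences was that of HL60 for 31 of the 38 members, of K562 for 4 and of MDSL for 3. The same count over all genes is not given here. HL60 also had the most 2-fold lower genes of the whole array, 11.1% against 3.86% to 4.88%.

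**Figure D1:**
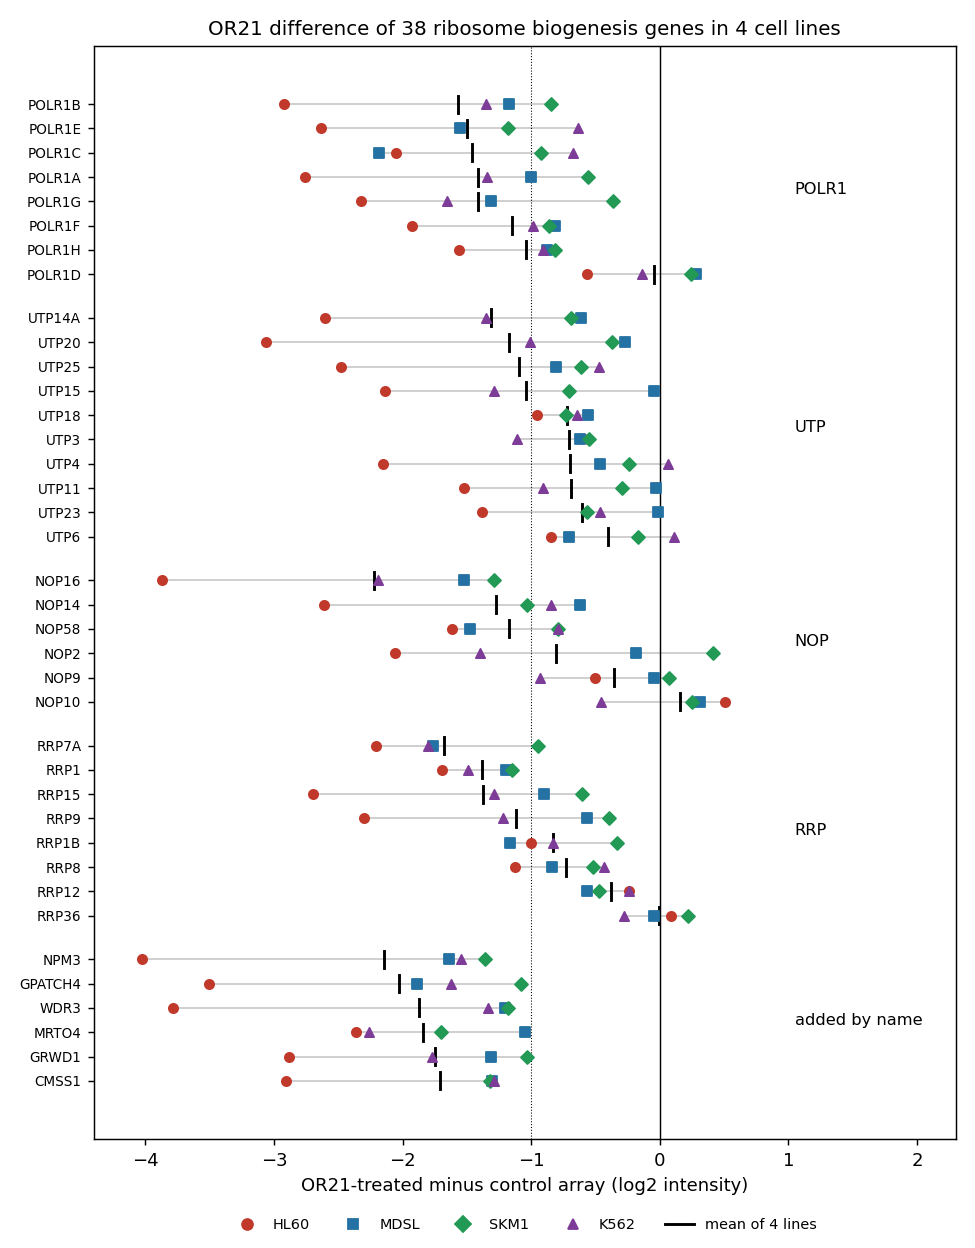
Each row is 1 member and each symbol the treated minus control difference (log2 intensity, x axis) in 1 line, with a black bar at the mean of the 4 lines. Dotted and solid lines mark a 2-fold lower level and no difference. HL60 (circles) lies far to the left for most members, NPM3 being at -4.03, while NOP10, RRP36 and POLR1D lie around 0.

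In the hybridisation spikes, control RNAs added before hybridisation, treated HL60 had a mean level of 11.71 log2, where the remaining 9 arrays had 10.85 to 11.10. Scaling each array to these spikes moved the HL60 median of the members from -2.14 to -2.91 and that of all genes from -0.05 to -0.81. Centring each array on its median moved the median of all genes in HL60 to -0.22 and that of the members to -2.31. With scaling to the spikes 31 of 38 members were lower in MDSL, the 5 that turned to higher lying within 0.05 log2 of their controls. Markers of cell types shifted beside the members. In treated HL60 6 of 10 granulocyte and monocyte markers were at least 2-fold higher, as were 4 in MDSL, 3 in SKM1 and 1 in K562. Their sum went in HL60 from 18.61 to 19.08 log2, in MDSL from 15.86 to 16.74, in SKM1 from 18.42 to 18.36 and in K562 from 12.18 to 13.11. Other granulocyte and monocyte markers were at least 2-fold lower after OR21. For HL60 they were PRTN3 (-3.30), AZU1 (-2.52) and MPO (-1.04). SKM1 had PRTN3 (-2.75) and MPO (-1.09) lower by that size, and MDSL had CSF3R (-1.41). The marker 2-fold higher in K562 was CSF3R, whose control level of 4.43 log2 lay under the background median of 5.42. Erythroid markers were at least 2-fold higher for 6 of 7 in MDSL and 4 of 7 in K562. Of 5 T and NK cell markers 3 were above background in treated HL60 and at least 2-fold higher there, 2 of them, CD3D and CD2, from control levels under background. Their sum went from 8.60 to 9.80 log2. The epithelial sum went from 9.45 to 12.17, with 2 of 5 markers at least 2-fold higher. The part of these shifts in the members' values was not tested.

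The polymerase itself was lower except for POLR1D. POLR1A and POLR1B are the large subunits that form the catalytic centre. POLR1A went from 11.17 log2 to 8.42 in HL60, from 9.92 to 8.91 in MDSL, from 10.87 to 10.31 in SKM1 and from 11.54 to 10.20 in K562. Treated levels of POLR1A in SKM1 and K562 lay above the MDSL control, so treated and control arrays overlapped between lines while each treated array was below its own control. POLR1B had a mean difference of -1.57 ± 0.92 log2 (SD, n = 4 lines), the lowest of the 8 POLR1 genes, and POLR1A had -1.41 ± 0.95. POLR1E and POLR1G, which form a pair on the periphery of the enzyme that takes part in initiation and elongation, differed by -1.50 ± 0.84 and -1.41 ± 0.82.

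POLR1G was 1 of 3 members, with RRP7A and RRP1B, whose 4 treated arrays all lay below its 4 control arrays, a pattern that 1.59% of all genes had. Its controls were 8.61 for HL60, 7.20 for MDSL, 7.03 for SKM1 and 8.52 for K562, and its treated values 6.29, 5.89, 6.67 and 6.86. POLR1F, part of the stalk, differed by -1.15 ± 0.52 and POLR1H, a small subunit that acts in RNA cleavage, by -1.04 ± 0.35.

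POLR1C and POLR1D form the assembly platform of the enzyme and are shared with RNA polymerase III. The partners differed from each other. POLR1C had -2.05 for HL60, -2.18 for MDSL, -0.92 for SKM1 and -0.68 for K562. POLR1D went from 12.25 to 11.68 in HL60, from 12.17 to 12.45 in MDSL, from 12.68 to 12.92 in SKM1 and from 10.73 to 10.59 in K562. It was thus a little lower in HL60 and K562 and a little higher in MDSL and SKM1. Its mean of -0.04 ± 0.40 turned to 0.073 under quantile normalization and to 0.13 without HL60.

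All 10 UTP genes were lower on average, from -1.31 for UTP14A to -0.40 for UTP6. None was 2-fold lower in MDSL or SKM1, while 7 were in HL60 and 4 in K562. UTP20, a very large scaffold protein of the processome, was at 9.86 log2 in control and 6.80 in treated HL60. In MDSL its values were 7.01 and 6.74, in SKM1 7.61 and 7.24, and in K562 9.65 and 8.64. The difference of UTP20 was thus large in HL60, moderate in K562 and small in the lines given 100 nM. Its mean was -1.18 ± 1.30 over 4 lines and -0.55 without HL60.

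UTP14A, which activates an RNA helicase of the particle, differed by -2.60 in HL60 and -1.35 in K562, against -0.61 in MDSL and -0.69 in SKM1. UTP15, of the subcomplex that binds the start of the precursor, had a mean of -1.04 ± 0.89, and -0.68 without HL60. UTP25 had -1.09 ± 0.94, and -0.63 without HL60. UTP18 was the most even of the 10, between -0.95 in HL60 and -0.56 in MDSL, with a mean of -0.72 ± 0.17. The remaining UTP genes, named here after their values were seen, were UTP3 (-0.71), UTP4 (-0.69), UTP11 (-0.69), UTP23 (-0.60) and UTP6 (-0.40). Without HL60 the means were -0.21 for UTP4, -0.41 for UTP11, -0.35 for UTP23 and -0.25 for UTP6. UTP3 differed most in K562, at -1.11. UTP4 and UTP6 were higher in K562, by 0.07 and 0.11, and both turned to lower when arrays were centred on their medians. UTP14A has a near-identical copy elsewhere in the genome, UTP14C, and whether its probe set separates the copies was not given in the sources used here.

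NOP16, a factor of large subunit assembly, had the lowest mean of all 38 members. Its control levels were 13.16 for HL60, 9.62 for MDSL, 12.09 for SKM1 and 13.08 for K562, and its treated levels 9.29, 8.10, 10.80 and 10.88. Each line was lower by more than 2-fold, and the mean difference was -2.22 ± 1.17 log2 (SD, n = 4 lines). NOP14, a processome protein, had -1.28 ± 0.91, and -0.83 without HL60. NOP58, a core protein of the box C/D particles that guide RNA methylation, had -1.17 ± 0.44, with -1.61 in HL60, -1.48 in MDSL and -0.79 in both SKM1 and K562.

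Other NOP genes were not lower in every line. NOP2, an RNA methyltransferase, differed by -2.06 in HL60, -1.39 in K562, -0.18 in MDSL and 0.42 in SKM1. Its mean of -0.80 became -0.39 without HL60 and -1.21 without SKM1, and its levels in MDSL and SKM1 were 5.53 to 5.94 log2, close to the background medians of 4.98 to 5.42 there. NOP9 had a mean of -0.35 ± 0.46, and -0.16 without K562. Its value in SKM1, 0.07, turned to lower under quantile normalization and median centring.

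NOP10 was the 1 member higher on average. It belongs to the box H/ACA particles, which turn uridine of ribosomal RNA into pseudouridine, and to telomerase. Its levels went from 14.71 to 15.22 in HL60, from 14.03 to 14.35 in MDSL, from 15.09 to 15.34 in SKM1 and from 15.40 to 14.95 in K562. It was thus higher in HL60, MDSL and SKM1 and lower in K562, with a mean of 0.16 ± 0.42. That mean was 0.038 without HL60, 0.36 without K562 and 0.029 with arrays centred on their medians. The HL60 value turned to -0.25 when arrays were scaled to the hybridisation spikes. Of 5 other genes listed for these particles or their assembly, 4 were measured, and their means were below 0. GAR1 had a mean of -1.37 ± 0.64, SHQ1 -1.12 ± 0.86, NHP2 -0.98 ± 0.39 and NAF1 -0.44 ± 0.81, none of them past the test described below. Without HL60 the mean of SHQ1 was -0.71 and that of NAF1 -0.045.

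Among the 8 RRP genes RRP7A, a protein bound to the processome, had the lowest mean, -1.68 ± 0.53 log2. Its controls were 11.06 for HL60, 10.34 for MDSL, 10.45 for SKM1 and 9.75 for K562, and its treated levels 8.85, 8.57, 9.4995 and 7.94. The treated and control ranges of RRP7A did not overlap. A pseudogene copy of RRP7A, RRP7BP, may share its probes, which could not be checked here. RRP1, a nucleolar protein of large subunit assembly, was the most even of the members that were 2-fold lower in all lines, at -1.70 for HL60, -1.20 for MDSL, -1.15 for SKM1 and -1.49 for K562, a mean of -1.38 ± 0.26. Its paralogue RRP1B had -0.83 ± 0.36, with the largest difference in MDSL, -1.16. RRP15, of large subunit assembly, had -1.37 ± 0.93 and RRP9, which binds a processome guide RNA, -1.12 ± 0.86, or -0.73 without HL60.

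The last RRP genes are named after their values were seen. RRP8, linked to silencing of ribosomal DNA, differed by -0.73 ± 0.32. RRP12, which acts in export of the subunits, differed by -0.38 ± 0.16, and its levels were low, 5.31 to 6.68 log2 in the 8 arrays of treated and control cells. RRP36 stood at a mean of -0.0034 ± 0.21, between -0.28 in K562 and 0.22 in SKM1. Its mean turned to 0.0095 without MDSL, 0.089 without K562 and 0.070 under quantile normalization.

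The 6 genes added by name had medians of -3.21 for HL60, -1.31 for MDSL, -1.25 for SKM1 and -1.58 for K562. NPM3, a nucleoplasmin family histone chaperone of the nucleolus, was at 11.62 in control and 7.59 in treated HL60. Its other pairs were 9.01 and 7.37 in MDSL, 10.91 and 9.55 in SKM1, and 11.38 and 9.83 in K562. HL60 thus stood apart from the other 3 lines, which lay within -1.64 to -1.36 of their controls.

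GPATCH4, a G-patch protein of the nucleolus, went from 12.78 to 9.28 in HL60, from 12.11 to 10.22 in MDSL, from 13.82 to 12.74 in SKM1 and from 13.43 to 11.80 in K562. WDR3, a WD-repeat protein of the processome, had a mean of -1.88 ± 1.28, and -1.24 without HL60. MRTO4, which holds the place of the ribosomal stalk protein during assembly, differed about alike in HL60 (-2.36) and K562 (-2.26), with -1.70 in SKM1 and -1.05 in MDSL. GRWD1, a chaperone of a ribosomal protein, had -1.75 ± 0.81. CMSS1 had -2.91 in HL60 and -1.32 to -1.29 in the other lines.

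The differences of the members were positively correlated between lines. Across the 38 members, Pearson's r of the differences lay between 0.48 for MDSL with K562 and 0.73 for MDSL with SKM1. The points are genes measured on the same arrays and chosen by these differences, so these values are a description without a test. They include the 6 genes added by name, each at least 2-fold lower in all lines. The r without these genes, or over all genes, is not given here.

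Before treatment the lines already differed in these genes. Set against each gene's mean over the 4 controls, the members had a median of 0.60 log2 in K562, 0.32 in HL60, -0.08 in SKM1 and -0.79 in MDSL. All genes had medians between -0.03 and 0.02. K562 held the highest control value for 21 members, HL60 for 11 and SKM1 for 6. MDSL held the lowest for 28. The range over the 4 controls was larger than the size of the mean OR21 difference for 31 of 38 members, and its median was 1.58 log2. The same counts over all genes are not given here, so these counts are not read as particular to the members. Treated K562 cells kept a median of -0.0034 from the members' 10-array means, above the -0.49 of untreated MDSL.

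**Figure D2:**
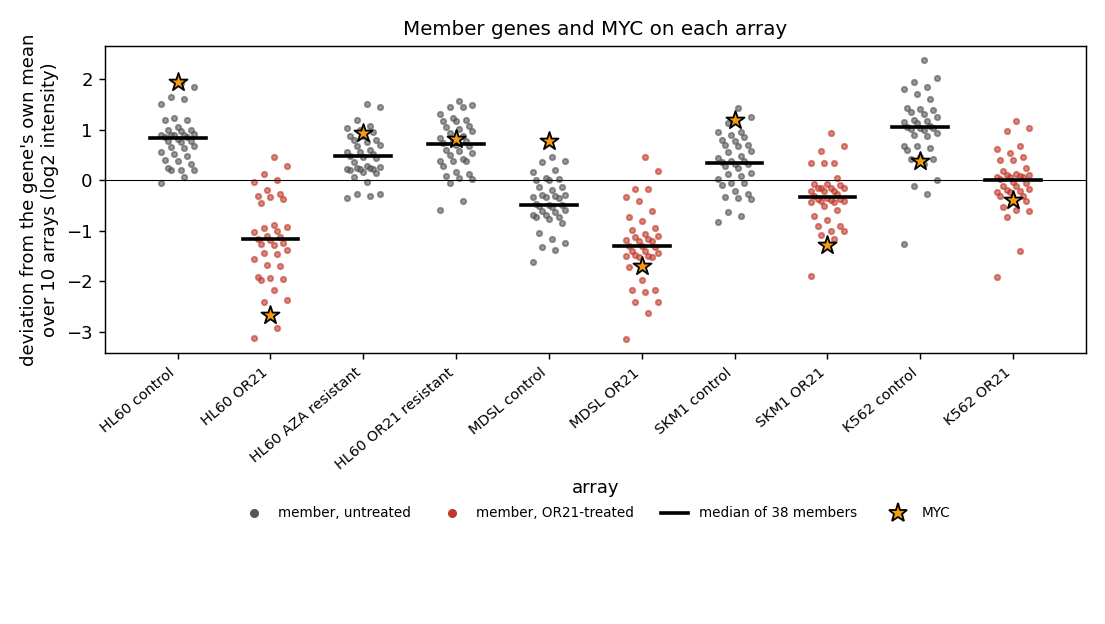
Points are the 38 members on each of the 10 arrays, as the deviation from each gene's own mean over the arrays (log2 intensity, y axis), with a bar at their median and a star for MYC. Every treated array (red) has a lower median than the control of its line, and the HL60 pair is farthest apart, 0.82 against -1.17.

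MYC had the lowest mean difference of all 17687 genes, -2.58 ± 1.58 log2 (SD, n = 4 lines, lower in 4 of 4, adjusted p = 0.122 in limma, not past the threshold). MYC was at 15.16 in control and 10.54 in treated HL60, 13.99 and 11.51 in MDSL, 14.41 and 11.94 in SKM1, and 13.59 and 12.83 in K562. The differences of MYC were therefore -4.62, -2.48, -2.47 and -0.76. The order of the lines was not the same for MYC and for the members: K562 had the smallest difference of MYC but, after HL60, the lowest median of the members.

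The E-box was searched in the stretch from 250 bases before to 50 bases after the start of each gene, taken from RefSeq (GRCh38.p14), where 33 members had a sequence. CACGTG reads alike on both strands. It was found for 11 of the 33 members (33.3%) and for 1538 of 14250 genes on the array with such a sequence (10.8%). Among the 27 of these found by symbol alone 10 held it (37.0%). In UTP20, UTP4, POLR1G and NOP10 it lay within the last 16 bases before the start, and the 60 bases up to the start are shown with the E-box in capitals, followed by those of NOP16 and NPM3, the members with the lowest means, in which no CACGTG was found.
UTP20, chr12:101280045-101280104, plus strand: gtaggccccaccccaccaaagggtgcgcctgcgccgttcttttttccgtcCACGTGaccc
UTP4, chr16:69132589-69132648, plus strand: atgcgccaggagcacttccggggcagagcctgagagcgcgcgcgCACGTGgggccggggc
POLR1G, chr19:45406584-45406643, plus strand: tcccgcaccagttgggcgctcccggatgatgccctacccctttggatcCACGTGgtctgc
NOP10, chr15:34343137-34343196, minus strand: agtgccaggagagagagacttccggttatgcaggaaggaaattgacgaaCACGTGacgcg
NOP16, chr5:176388599-176388658, minus strand: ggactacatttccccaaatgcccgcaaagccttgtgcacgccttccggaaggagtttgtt
NPM3, chr10:101783447-101783506, minus strand: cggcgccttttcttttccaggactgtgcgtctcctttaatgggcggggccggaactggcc

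The E-box begins 10 bases before the start of UTP20, 16 before that of UTP4, 12 before that of POLR1G and 11 before that of NOP10. The responses of these genes differed: HL60 had -3.06 for UTP20, -2.32 for POLR1G, -2.15 for UTP4 and 0.51 for NOP10. Over all members the median of the mean differences was -1.12 with an E-box and -1.38 without, and the order was the other way round for the genes found by symbol alone (-1.11 with, -1.04 without) and for all genes (-0.06 and -0.02). Other motifs, searched on both strands, were the ETS core CCGGAAG in 12 of 33 members (36.4%, against 16.6% of all genes), AAGATGGCG of YY1 in 3 (9.09%, against 3.28%, but 1 of 27, or 3.7%, of the genes found by symbol) and the NRF1 sequence in 1 (3.03%, against 2.05%). A match is a stretch of letters and does not show binding.

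The resistant HL60 derivatives were grown without treatment. Within 0.5 log2 of the parental level lay 20 of 38 members in AZA resistant and 24 in OR21 resistant cells. The share of all genes within that distance is not given here. Each derivative was compared with the same parental control array, which the treated HL60 array also shares. In AZA resistant cells the median difference was -0.42 log2, with 29 of 38 members lower (51.5% of all genes were) and 1 of them at least 2-fold (5.11%). In OR21 resistant cells the median was -0.17, with 24 lower (55.7% of all genes) and 2 of them at least 2-fold (4.27%). The corresponding medians of all genes were -0.02 and -0.07. Centring arrays on their medians gave -0.59 and -0.31 for the members, and -0.18 and -0.22 for all genes. After centring 34 and 27 members were lower, 4 and 2 of them at least 2-fold. The shares of all genes for these centred counts are not given here. Levels in treated HL60 were below those of both derivatives for 34 of 38 members (42.6% of all genes), the others being NOP10, RRP1B, RRP36 and UTP3.

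NPM3 was the member farthest below its parental level in the derivatives. It was at 10.28 log2 in AZA resistant and 10.18 in OR21 resistant cells, against 11.62 in parental HL60 and 7.59 after OR21, differences of -1.34 and -1.44 for the derivatives. The other member 2-fold lower was RRP1B in OR21 resistant cells, at -1.08, with -0.97 in AZA resistant cells. NOP16 had -0.48 and -0.47, and WDR3 -0.31 and -0.16.

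Some members lay above the parental level. GPATCH4 was at 13.91 in AZA resistant and 13.89 in OR21 resistant cells against 12.78 in the parental line, differences of 1.12 and 1.11. UTP25 had 0.88 and 1.11, and RRP15 0.35 and 0.55. RRP12 differed by 0.03 in AZA resistant and 1.01 in OR21 resistant cells, the first turning to lower under quantile normalization and median centring. With arrays centred on their medians 0 members were at least 2-fold above the parental level in either derivative. All 8 POLR1 genes were lower in AZA resistant cells, from -0.96 for POLR1H to -0.01 for POLR1A, and under quantile normalization POLR1A and POLR1D turned to higher. In OR21 resistant cells 6 of the 8 were lower. MYC differed by -1.02 and -1.13.

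Set against each other, the derivatives were close. The OR21 resistant array was higher for 29 of 38 members, with a median difference of 0.15 log2, and for 24 of 38 under quantile normalization, with a median of 0.07. Over all genes as deposited it was higher for 8767 of 17687, with a median of -0.0034. As deposited 0 members differed by 2-fold, and of all 17687 genes only 157 were lower and 120 higher by that size. The widest differences of members were those of RRP12 (0.98 log2), UTP20 (0.68) and NOP2 (0.58). With arrays centred on their medians 1 member, RRP12, differed by 2-fold.

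**Figure D3:**
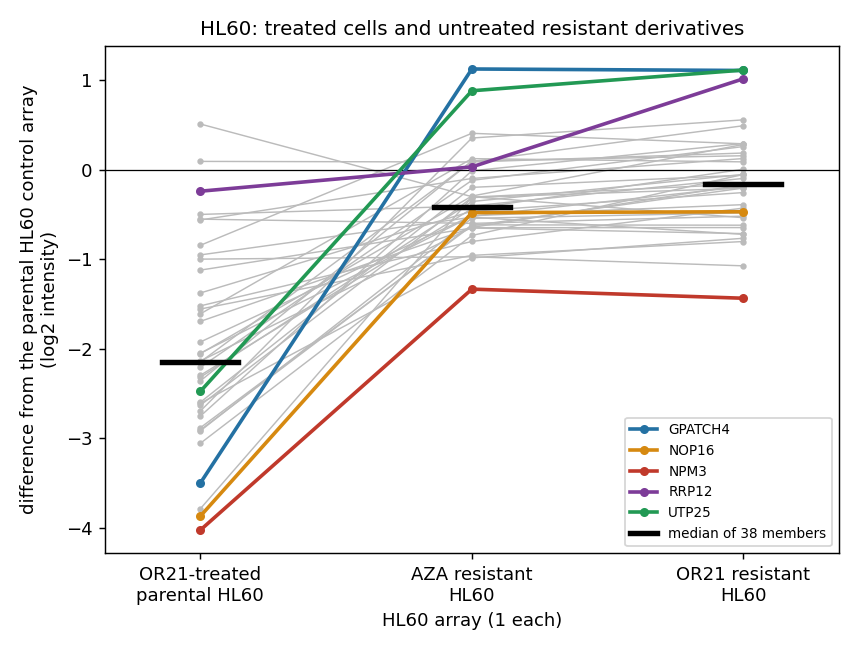
Each line joins the differences of 1 member from the parental HL60 control array (log2 intensity, y axis) in treated cells and in the untreated resistant derivatives, 1 array each. Black bars are medians of the 38 members, -2.14, -0.42 and -0.17, and NPM3 (red) stays lowest while GPATCH4 (blue) and UTP25 (green) lie above 0 in the derivatives.

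Other genes of the pathway were taken from 9 lists drawn up by pathway membership with earlier results of these data known, 134 measured genes in all. Over the 4 lines, limma with the cell line as a block called 7 of 17687 genes (0.0396%) at an adjusted p under 0.05, and 0 of the 134. At an unadjusted p under 0.05 there were 84 of the 134 and 3372 of all 17687 genes. Among the 134 the smallest adjusted p of the limma fit was 0.102, for IMP3 and WDR74. By the mean of the lines 129 of the 134 were lower, 99 were lower in all 4 lines and 2, WDR74 and NOLC1, were at least 2-fold lower in all 4. The same counts over all 17687 genes were 9273, 2711 (15.3%) and 40 (0.226%). The 9273 of 17687 also stands beside the counts of lower means given for each list below.

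Small subunit processome factors outside the symbol rule had means below 0 for 41 of 41 genes, with line medians of -1.81 for HL60, -0.54 for MDSL, -0.72 for SKM1 and -0.75 for K562. The lowest were IMP4 (-1.73 ± 0.95), NOL6 (-1.73 ± 1.10) and PDCD11 (-1.49 ± 0.63). Large subunit assembly factors were lower on average for 42 of 42, with WDR74 at -1.82 ± 0.73, RRS1 at -1.59 ± 0.67 and NLE1 at -1.58 ± 1.22. Nucleolar scaffold and chaperone proteins were lower for 6 of 7. In that list NOLC1, which links nucleolar particles with the polymerase, stood at -1.63 ± 1.02, KNOP1 at -1.41 ± 0.78 and the helicase DDX21 at -1.003 ± 0.81. Exosome subunits, which trim the RNA precursors, were lower for 12 of 12, with EXOSC2 at -1.66 ± 0.92, EXOSC5 at -1.55 ± 1.28 and EXOSC8 at -1.13 ± 0.54. Without HL60 the mean was -0.97 for NLE1, -0.60 for DDX21 and -0.93 for EXOSC5.

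The factors that bring RNA polymerase I to its promoter, or end its transcription, were lower on average for 6 of 7 genes. They had line medians of -0.84 for HL60, -0.34 for MDSL, -0.32 for SKM1 and -0.23 for K562, where the 8 POLR1 genes had -2.19, -1.09, -0.83 and -0.95. The difference between these lists was not tested. TAF1A, a subunit of the selectivity factor, stood at -0.71 ± 0.29, TBP at -0.55 ± 0.51 and TAF1B at -0.53 ± 0.33. TBP had -0.31 without HL60. RRN3, the initiation factor that binds the polymerase, is named after its values were seen as the 1 gene of this list higher on average, at 0.08 ± 1.07. It went from 12.79 to 14.41 log2 in MDSL and was lower in the other lines, with a mean of -0.43 without MDSL.

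RNA polymerase III subunits had line medians of -1.25, -0.40, -0.25 and -0.46 in the same order, with POLR3G at -1.45 ± 1.13, POLR3E at -1.23 ± 0.74 and POLR3K at -1.03 ± 0.54. RNA polymerase II subunits had -0.70, -0.02, 0.01 and -0.41. POLR2I at -1.48 ± 0.67 and POLR2D at -0.92 ± 0.35 were the lowest of them, followed by POLR2C at -0.54 ± 0.48. Of the subunits shared between polymerases 4 of 4 were lower on average, POLR2H at -0.99 ± 0.94, POLR2E at -0.39 ± 0.08 and POLR2L at -0.34 ± 0.46. Without HL60 the mean was -0.89 for POLR3G, -0.34 for POLR2C and -0.54 for POLR2H, and without K562 it was -0.19 for POLR2L.

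**Figure D4:**
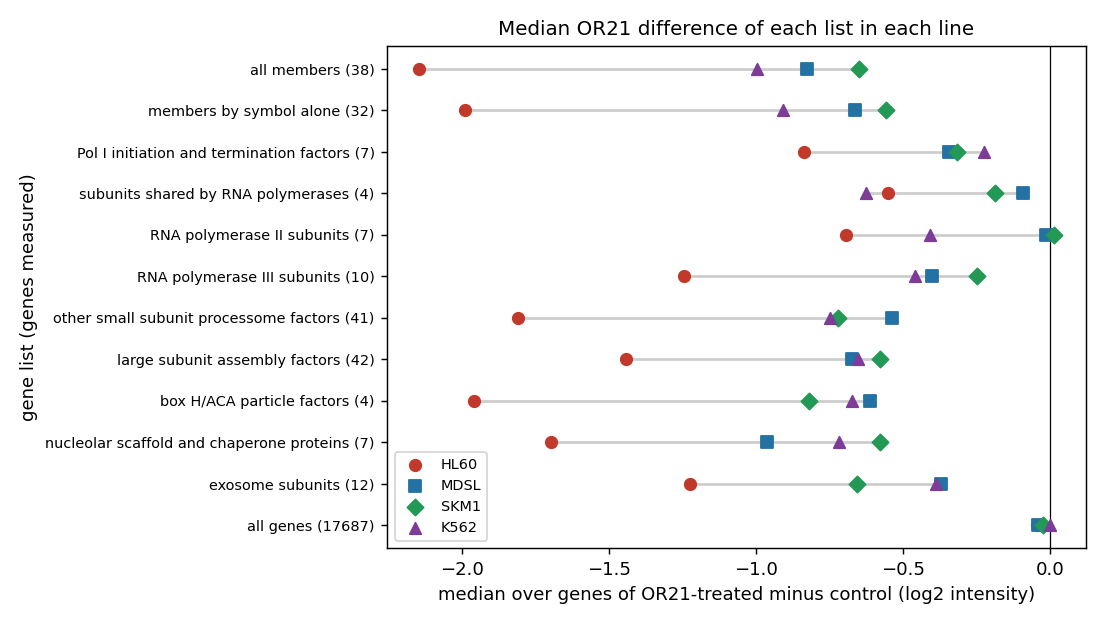
Medians over the genes of each list of the treated minus control difference (log2 intensity, x axis), with 1 symbol for each line and the number of genes measured in brackets. HL60 (circles) has the lowest median in every list except the subunits shared by RNA polymerases, where K562 does, and all genes lie near 0.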

How the data were processed

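The authors deposited an intensity on a linear scale for each probe set, between 4.25 and 405294. Software and normalization are not given in the sources used here. Values were log2-transformed, without a pseudocount or further normalization. GEO's platform table gave 1 symbol to 17709 of 24351 rows and several to 0. For 20 genes with several probe sets the one with the highest mean was kept, which left 17687 genes. 0 columns belonged to no sample.

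Differences are treated minus control within a line, or derivative minus parental HL60. Single comparisons rest on 1 array per condition and have no p-value. The number of arrays limits precision. All genes were fitted with limma 3.58.1 in R 4.3.3 over 8 arrays with a block for the cell line and two-sided tests, with Benjamini-Hochberg adjustment at 0.05. The p-values measure the spread between lines. The fit was tested on simulated data.

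The members and lists were chosen with earlier results of these data known. Named by rule were the 6 added genes, all POLR1 genes, 5 each of UTP, NOP and RRP genes with the largest absolute mean, positive means, and 3 genes of each pathway list. Background is the median of the array's background probe sets. Alternatives were quantile normalization, median centring, scaling to the hybridisation spikes, a pseudocount of 16, leaving out genes under the 30th percentile, the mean of probe sets, no cell line block and leaving out each line.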

Additional observations from a re-analysis of the deposited data

Results flagged for a closer look

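In 7 of the 38 members, 1 line lay far from the other 3 by Dixon's criterion for 4 values. Chance flags about 1 in 20 independent groups, but the members were chosen by these same values and share the same arrays. The count over all genes is not given here, so the 7 are a description and not a result about the members. In 6 of the 7 the line was HL60, whose treated array had hybridisation spikes of 11.71 log2 against 10.85 to 11.10 elsewhere. NPM3 differed by -4.03 log2 in HL60 against -1.64 to -1.36 in the other lines. WDR3 differed by -3.79 against -1.34 to -1.18 and CMSS1 by -2.91 against -1.32 to -1.29. UTP25 differed by -2.48 against -0.81 to -0.47, POLR1F by -1.93 against -0.99 to -0.82 and POLR1H by -1.56 against -0.91 to -0.81. For UTP3 the line was K562, at -1.11 against -0.62 to -0.55.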

How the results depend on the processing

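The median member difference kept its sign in all 4 lines and both derivatives under the 6 alternatives of scaling, pseudocount, filter and probe sets. It moved by more than the spread between lines (0.67 log2) only for HL60 scaled to the hybridisation spikes, to -2.91. The count of members at least 2-fold lower in every line used was 6 to 9 under these alternatives, against 8, and 8 to 12 when a line was left out, where the count over all genes went from 40 (0.226%) to between 52 and 158 (0.294% to 0.893%). The 7 genes past the limma threshold became 3 with a pseudocount of 16, 240 with scaling to the spikes and 1 with no replicate block for the cell line, and 0 to 5 without 1 line. Without SKM1 it was 0 (2181 at an unadjusted p under 0.05), without HL60 1 and without K562 2. The cause was not tested. Of the mean differences of the 38 members, 2 turned. POLR1D, at -0.04, became 0.073 under quantile normalization and -0.15 to 0.13 when a line was left out. RRP36, at -0.0034, became 0.070 under quantile normalization and -0.078 to 0.089 when a line was left out. With 1 array per condition, differences in a single line or derivative carry no replicate error, and dim genes have only minimum sizes.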
